A study of Mus musculus with 6 samples.

Results

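The mitochondrial genome of the mouse encodes the genes whose symbols start with mt-, and all such symbols in the deposited tables were taken: 37 genes of the 51802 gene symbols listed. They comprise 13 mRNAs, 2 rRNAs and 22 tRNAs. Of the mRNAs, 7 encode subunits of complex I, 1 of complex III, 3 of complex IV and 2 of complex V. All 37 had the length that GENCODE M21 gives for the same transcript on GRCm38.

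Bulk RNA was sequenced from cochlear tissue of mice aged 2 months, labelled as C57/BL6J, with 3 samples of *Pou4f3(Δ/+)* mice and 3 of wildtype littermates. *Pou4f3* encodes a hair cell transcription factor, and *Pou4f3(Δ/+)* mice carry 1 knock-in allele with a short deletion and a C-to-T change beside a wildtype allele, in every cell. Values are given in the order of the replicate numbers, which are 3, 4 and 5 for wildtype and 1, 2 and 3 for *Pou4f3(Δ/+)*, here also called the mutants. The labels do not say whether each sample is 1 animal or a pool, so the tests measure the spread between these samples.

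The mitochondrial genome is transcribed from both strands into long precursors, which are cut at the tRNAs that lie between most of the genes. The mRNAs encode core subunits of the respiratory chain and of ATP synthase, and the rRNAs build the mitochondrial ribosome. Hair cells and the marginal cells of the stria vascularis, which pump ions into the cochlear fluid, are rich in mitochondria, and the nuclear genome also carries old copies of mitochondrial DNA.

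One stretch of this genome sets the counts apart and is shown first. In GENCODE M21, 7 pseudogenes on the minus strand of chr1:24611535-24616197 (GRCm38, a span of 4663 bases) follow each other in the order of the mitochondrial genes of chrM:6381-11042 (4662 bases), with 98.78% to 100% identity over their aligned length. They are *Gm29216* (*mt-Co1*), *Gm28661* (*mt-Co2*), *Gm10925* (*mt-Atp6*), *Gm28437* (*mt-Co3*), *Gm28438* (*mt-Nd3*), *Gm10222* (*mt-Nd4l*) and *Gm28439* (*mt-Nd4*). The mRNA genes *mt-Co2*, *mt-Atp8*, *mt-Atp6*, *mt-Co3*, *mt-Nd3* and *mt-Nd4l* and 5 tRNA genes lie wholly inside the stretch, while *mt-Co1* and *mt-Nd4* lie partly in it. No copy of *mt-Atp8* is annotated as such, but its last 43 bases lie in *Gm10925*. The rest would lie in the gap between *Gm28661* and *Gm10925*, which is 233 bases long on chromosome 1 and 233 bases long in the mitochondrial genome.

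Of all stretches of 50 bases in *mt-Co2*, 100% occur unchanged in a nuclear transcript, as do 99.9% in *mt-Co3*, 99.5% in *mt-Atp6*, 98.8% in *mt-Nd4l* and 97.99% in *mt-Nd3*. The share is 62.2% for *mt-Nd4*, 51.1% for *mt-Co1*, 8.19% for *mt-Nd2*, 7.61% for *mt-Nd5* and 1.04% for *mt-Rnr2*. It is 0 for *mt-Nd1*, *mt-Nd6*, *mt-Cytb*, *mt-Rnr1* and *mt-Atp8*. The last 43 bases of *mt-Atp8* lie in *Gm10925*, but are too few to fill a stretch of 50. Any nuclear transcript counts here. *Gm29216* holds 430 of the 1496 stretches of *mt-Co1*, and *Gm13340*, a copy on chromosome 2 at 97.6% identity, holds 411. The shared stretches of *mt-Nd2*, *mt-Nd5* and *mt-Rnr2* also lie outside chromosome 1. A read that lies wholly in shared bases can be placed in either genome. The counts of *mt-Co2*, *mt-Co3*, *mt-Atp6*, *mt-Nd4l* and *mt-Nd3*, and of *mt-Atp8* over its last 43 bases, are therefore uncertain. For the rest of *mt-Atp8*, whether the unannotated bases of chromosome 1 hold a copy was not tested. The first copied bases of *mt-Co1*, where the copy begins, and the start of *mt-Nd3* are given with their copies, 5′ to 3′, because they hold the differences that can tell the genes apart. Capitals mark the differing bases: T1056A, C1057T, A1059G, A1060G, C1062A and A1066T in *mt-Co1* and T3C in *mt-Nd3*, counted from 1 at the gene's 5′ end with the mitochondrial base first.
mt-Co1, bases 1054 to 1133, chrM:6381-6460, plus strand: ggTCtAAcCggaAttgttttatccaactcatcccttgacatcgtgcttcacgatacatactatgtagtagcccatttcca
Gm29216, chr1:24616118-24616197, minus strand: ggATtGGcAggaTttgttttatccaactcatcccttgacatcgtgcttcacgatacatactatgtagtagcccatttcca
mt-Nd3, bases 1 to 120, chrM:9459-9578, plus strand: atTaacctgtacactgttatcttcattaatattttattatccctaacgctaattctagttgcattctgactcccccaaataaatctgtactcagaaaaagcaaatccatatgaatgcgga
Gm28438, chr1:24613000-24613119, minus strand: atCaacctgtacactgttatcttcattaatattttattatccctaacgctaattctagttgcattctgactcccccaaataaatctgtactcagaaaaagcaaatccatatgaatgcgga

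Inside the stretch the coding sequences also overlap each other. The end of *mt-Atp8* shares 43 bases with the start of *mt-Atp6*, and the end of *mt-Nd4l* shares 7 bases with the start of *mt-Nd4*, and these shared bases are in capitals here. Outside it, *mt-Nd5* and *mt-Nd6* overlap by 14 bases on opposite strands. Reads over these bases can belong to either gene of a pair.
mt-Atp8, last bases, chrM:7880-7969, plus strand: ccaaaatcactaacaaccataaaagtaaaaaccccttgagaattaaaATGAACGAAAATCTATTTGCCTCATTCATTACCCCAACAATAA
mt-Nd4l, last bases, chrM:10114-10173, plus strand: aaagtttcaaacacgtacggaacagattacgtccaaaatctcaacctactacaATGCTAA

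The libraries held between 14295069 and 17696784 counts when all transcripts were summed, and 17136 genes passed the filter on low counts. *Pou4f3* was counted 68, 72 and 88 times in wildtype and 66, 97 and 52 times in *Pou4f3(Δ/+)*, and both alleles give transcripts, so these counts do not check the genotype. Hair cell markers were all measured, with a summed level of 378 to 393 CPM (counts for each 1000000 summed counts of the library) in wildtype and 347 to 405 in the mutants. Of 6 skeletal muscle markers, 1 passed the filter, and their summed level was between 2.26 and 5.59 CPM in the 6 libraries.

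Of all counts, the mitochondrial genes took 4.54%, 4.46% and 4.299% in wildtype, by replicate number, and 3.84%, 4.002% and 4.26% in the mutants. The wildtype mean was 4.44% ± 0.124 and the mutant mean 4.03% ± 0.211 (SD, n = 3 each), a difference of -0.402 percentage points. The highest mutant lay under the lowest wildtype, and the two-sided exact permutation test gave p = 0.1, the smallest value that 3 samples against 3 allow. Without mutant replicates 1 and 2 the difference was -0.178 percentage points. In bulk tissue, fewer cells of a mitochondria-rich type and less mitochondrial RNA per cell cannot be told apart. The part of reads placed on the nuclear copies instead of the mitochondrial genes was not tested.

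How much of the difference lay in the 6 mRNAs inside the copied stretch turned on wildtype replicate 3. Together these mRNAs held 0.609%, 0.232% and 0.129% of the counts in wildtype and 0.0113%, 0.0264% and 0.128% in the mutants, so that *Pou4f3(Δ/+)* replicate 3 had nearly the share of wildtype replicate 5. Their mean difference was -0.268 percentage points, which is 66.6% of the difference in the whole share (exact permutation p = 0.1). Without wildtype replicate 3 it was -0.125 of -0.348 percentage points, or 35.9%, so that most of the difference then lay outside the stretch. Without any one of the other samples it was between 59.2% and 80.8%. Without these 6 mRNAs, and with all samples kept, the share was 3.93%, 4.23% and 4.17% in wildtype and 3.83%, 3.98% and 4.13% in the mutants. These groups overlapped, with means of 4.11% ± 0.157 and 3.98% ± 0.150 (SD, n = 3 each, exact permutation p = 0.3). The overlap came from wildtype replicate 3 alone: wildtype replicates 4 and 5 lay above every mutant, and without replicate 3 the difference was -0.223 instead of -0.134 percentage points. With overlap, it was -0.210 without mutant replicate 3, -0.0747 without wildtype replicate 4 and -0.0596 without mutant replicate 1. When *mt-Co1* and *mt-Nd4* were left out as well, the means were 2.22% ± 0.130 and 2.18% ± 0.0800 (SD, n = 3 each, exact permutation p = 0.7), a difference of -0.0470 that became -0.119 with no overlap without wildtype replicate 3 and 0.00609 without wildtype replicate 4. It was -0.0277 without wildtype replicate 5, -0.00549 without mutant replicate 1 and -0.0853 without mutant replicate 3. The sums inside and outside the stretch were all chosen after the values were seen.

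**Figure D1:**
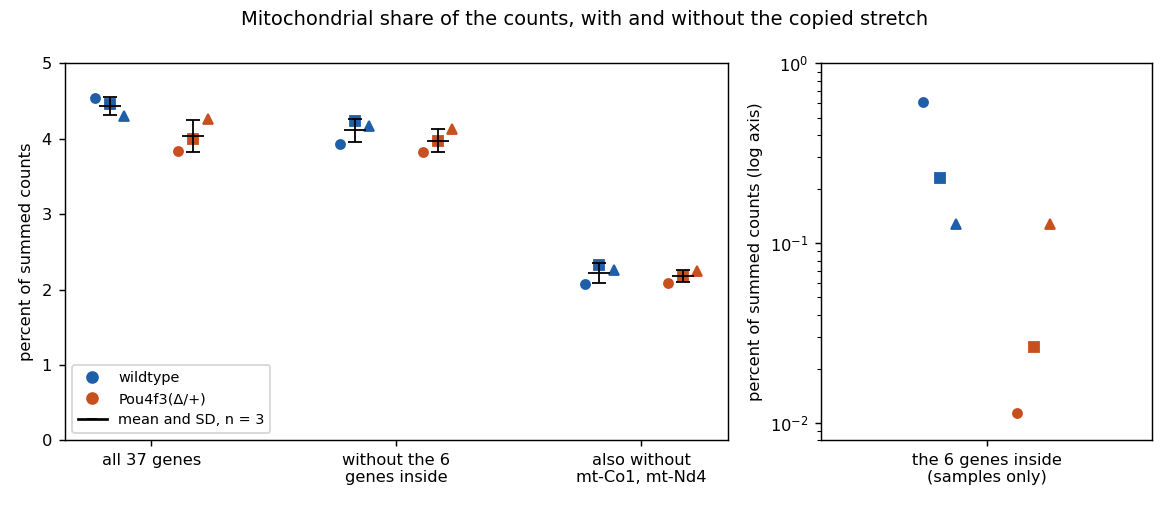
Percent of the summed counts in each of the 6 samples, for all 37 mitochondrial genes and with genes left out (left, axis from 0, bars are mean and SD, n = 3) and for the 6 genes inside the copied stretch (right, log axis, samples only). The wildtype and *Pou4f3(Δ/+)* samples do not overlap for all 37 genes, and once the 6 genes are left out wildtype replicate 3, at 3.93%, overlaps the mutants while wildtype replicates 4 and 5 stay above them.

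The 6 genes differed between libraries far more than the rest. From the lowest to the highest library, the share changed 31.6-fold to 98.5-fold for the genes inside the stretch and 1.11-fold to 1.46-fold for the 9 other mRNAs and rRNAs. Within the wildtype group alone, the highest share of a gene inside the stretch was 3.81 to 8.18 times its lowest. All 6 genes were highest in wildtype replicate 3, lowest in *Pou4f3(Δ/+)* replicate 1 and second lowest in *Pou4f3(Δ/+)* replicate 2.

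**Figure D2:**
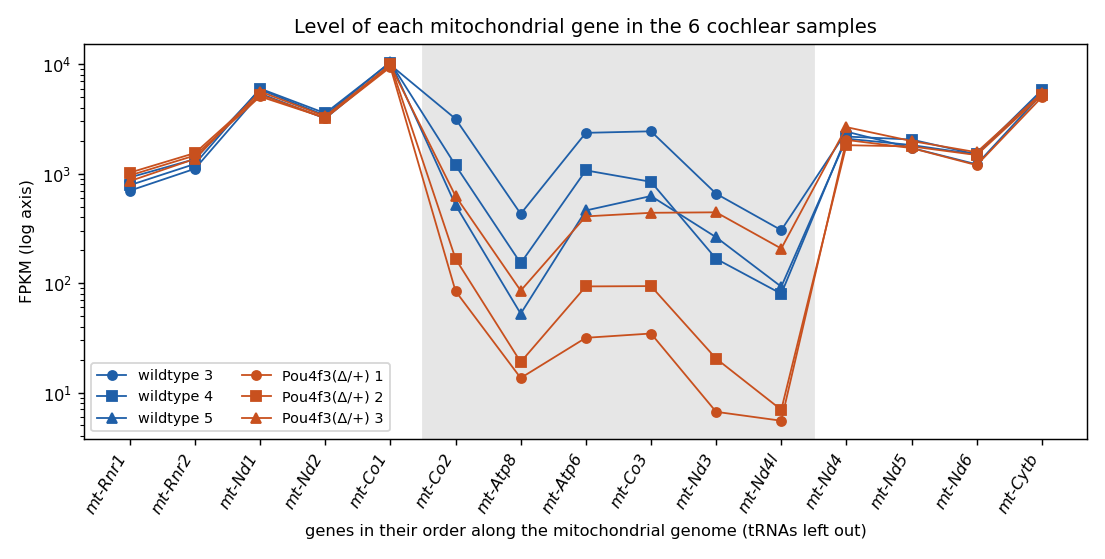
FPKM (log axis) of the 13 mRNAs and 2 rRNAs in genome order, with 1 line per sample and the 6 genes inside the copied stretch shaded. The lines run together outside the shading and spread apart inside it, where *mt-Nd3* lies between 6.66 and 656 FPKM.

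Both ATP synthase genes lie inside the stretch. *mt-Atp6*, which encodes a subunit of the proton channel, was counted at 1608, 730 and 314 CPM in wildtype and at 21.5, 63.5 and 277 in the mutants. The mutants lay wholly under the wildtype range, as for 6.59% of all genes tested. The log2 fold change was -2.89 ± 0.87 (SE), with an adjusted p of 0.643 by edgeR's quasi-likelihood test with Benjamini-Hochberg adjustment. *mt-Atp8*, which encodes a small subunit of the same enzyme, was at 87.6, 31.0 and 10.7 CPM in wildtype and at 2.77, 3.87 and 17.4 in the mutants. Here *Pou4f3(Δ/+)* replicate 3 lay above wildtype replicate 5, and the log2 fold change was -2.46 ± 0.82 (SE, edgeR adjusted p = 0.643).

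Of the complex IV genes, *mt-Co2* and *mt-Co3* lie inside the stretch, and all 3 encode the catalytic core of cytochrome c oxidase. *mt-Co3* was at 1912, 661 and 490 CPM in wildtype and at 27.1, 73.6 and 344 in the mutants. The groups did not overlap, and the log2 fold change was -2.80 ± 0.86 (SE, edgeR adjusted p = 0.643). *mt-Co2* was at 2168, 815 and 353 CPM in wildtype and at 57.8, 114 and 427 in the mutants, where replicate 3 lay above wildtype replicate 5. Its log2 fold change was -2.49 ± 0.80 (SE, edgeR adjusted p = 0.643). *mt-Co1*, which encodes the subunit that holds the active site, was the most abundant mitochondrial mRNA and was at 15231, 16018 and 16224 CPM in wildtype and at 14560, 15429 and 15109 in the mutants. These ranges overlapped, and the log2 fold change was -0.08 ± 0.10 (SE, edgeR adjusted p = 0.845).

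The complex I genes *mt-Nd3* and *mt-Nd4l*, at the far end of the stretch, encode small membrane subunits and had another order of samples. *mt-Nd3* was at 228, 58.0 and 91.3 CPM in wildtype and at 2.32, 7.10 and 154 in the mutants. *mt-Nd4l* was at 90.4, 23.7 and 27.5 CPM in wildtype and at 1.64, 2.07 and 61.4 in the mutants. For both genes, *Pou4f3(Δ/+)* replicate 3 lay above wildtype replicates 4 and 5, while the other *Pou4f3(Δ/+)* samples lay below every wildtype sample. The log2 fold changes were -1.24 ± 1.13 (SE, edgeR adjusted p = 0.788) and -1.16 ± 1.09 (SE, edgeR adjusted p = 0.794). On the log2(FPKM + 0.5) scale, limma-trend gave -2.92 and -2.65 for them, with an adjusted p of 0.691 and 0.695.

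The 5 other complex I genes lie outside the stretch or, for *mt-Nd4*, partly outside it. *mt-Nd1*, at the base of the membrane arm, was at 5163, 5732 and 5618 CPM in wildtype and at 4855, 5046 and 5391 in the mutants. *mt-Nd2*, a proton-pumping subunit, was at 3315, 3702 and 3532 CPM in wildtype and at 3357, 3342 and 3475 in the mutants. Both genes overlapped between the genotypes, with log2 fold changes of -0.11 ± 0.09 and -0.05 ± 0.09 (SE, edgeR adjusted p = 0.771 and 0.889). *mt-Nd4*, another pumping subunit, was at 3336, 3009 and 2878 CPM in wildtype and at 2803, 2510 and 3668 in the mutants. *mt-Nd5*, the outermost pumping subunit, was at 3135, 3740 and 3331 CPM in wildtype and at 3125, 3236 and 3625 in the mutants. *mt-Nd4* was highest in *Pou4f3(Δ/+)* replicate 3, the library that was also high in the neighbouring *mt-Nd3* and *mt-Nd4l* relative to the other mutant samples. The log2 fold changes were -0.04 ± 0.14 for *mt-Nd4* and -0.03 ± 0.10 for *mt-Nd5* (SE, edgeR adjusted p = 0.952 and 0.948).

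*mt-Nd6* is the only mRNA encoded on the other strand. It was at 631, 778 and 777 CPM in wildtype and at 621, 768 and 814 in the mutants, with a log2 fold change of 0.01 ± 0.13 (SE, edgeR adjusted p = 0.987). The log2 ratio of its counts to those of the 12 other mRNAs was -5.82 ± 0.221 in wildtype and -5.64 ± 0.139 in the mutants (SD, n = 3 each, exact permutation p = 0.3). Against the mRNAs of that strand outside the stretch, a comparison chosen after the values were seen, it was -5.70 ± 0.128 and -5.62 ± 0.153 (SD, n = 3 each, exact permutation p = 0.5). The groups overlapped in both. Against all 12 other mRNAs the difference was 0.178 with all samples. It was 0.0523 without wildtype replicate 3 and 0.258 without mutant replicate 1, the lowest and highest values with 1 sample left out. The labels do not say that strand was kept, so reads of *mt-Nd6* and of the opposite strand cannot be told apart.

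*mt-Cytb*, the only mitochondrially encoded subunit of complex III, was at 6106, 6638 and 6317 CPM in wildtype and at 5724, 6004 and 6234 in the mutants. The samples overlapped between the genotypes, with a log2 fold change of -0.09 ± 0.09 (SE, edgeR adjusted p = 0.812).

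The rRNAs had values in the opposite direction. *mt-Rnr1*, the rRNA of the small ribosomal subunit, was at 668, 749 and 882 CPM in wildtype and at 921, 976 and 816 in the mutants. *mt-Rnr2*, that of the large subunit, was at 1755, 1942 and 2149 CPM in wildtype and at 2320, 2443 and 2161 in the mutants. The log2 fold changes were 0.24 ± 0.12 and 0.24 ± 0.11 (SE, edgeR adjusted p = 0.660 and 0.643). They ranged from 0.15 to 0.36 and from 0.18 to 0.32 with 1 sample left out. In share of the counts the *mt-Rnr2* samples did not overlap, by a margin between wildtype replicate 5 and *Pou4f3(Δ/+)* replicate 3 of 2149 against 2161 CPM, and after TMM scaling they did. The log2 ratio of *mt-Rnr2* to *mt-Rnr1* counts was 1.35 ± 0.0579 in wildtype and 1.35 ± 0.0441 in the mutants (SD, n = 3 each, exact permutation p = 1). Libraries were made with either poly(A) selection or an rRNA removal kit, and the labels do not say which for a given sample, so the rRNA level depends on a step that is not known here.

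None of the 15 mitochondrial genes that passed the filter had an adjusted p under 0.05 by edgeR, nor did any of the 17136 genes tested (0%). At an unadjusted p under 0.05, 4 mitochondrial genes were lower in *Pou4f3(Δ/+)* (*mt-Atp6*, *mt-Co3*, *mt-Co2* and *mt-Atp8*) and 0 were higher, against 7.64% of all genes at this threshold, 4.14% lower and 3.50% higher. These 4 genes lie side by side, were measured in the same libraries and are not independent of each other. By DESeq2, 64 genes (0.373%) had an adjusted p under 0.05, and 6.72% an unadjusted one. Of the mitochondrial genes, DESeq2 gave 0 with an adjusted and 6 with an unadjusted p under 0.05, the same 4 lower and both rRNAs higher, and it gave no p for *mt-Nd4l*. The median log2 fold change was -2.48 over the 6 genes inside the stretch, -0.04 over the 9 outside it and -0.00 over all genes tested.

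**Figure D3:**
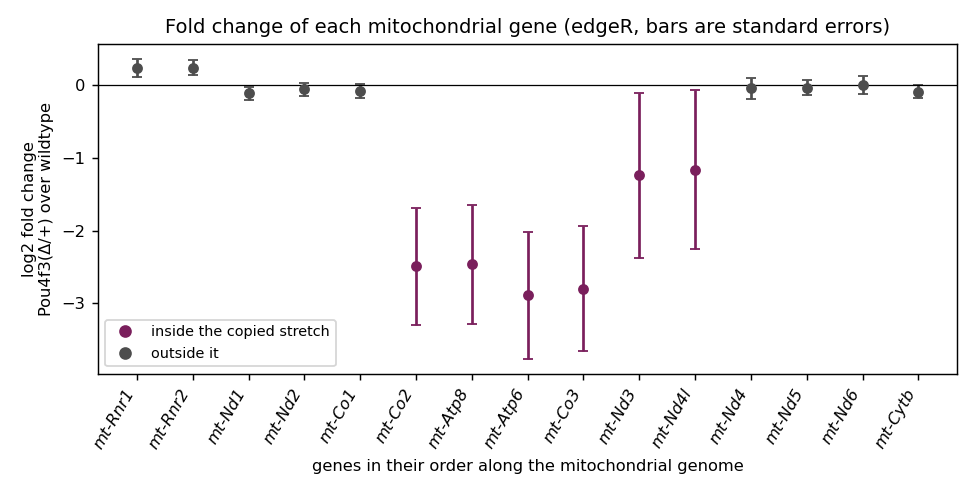
Log2 fold change of *Pou4f3(Δ/+)* over wildtype for the 15 mitochondrial genes that passed the filter, in genome order, from edgeR with bars of 1 standard error. The 6 genes inside the copied stretch lie between -2.89 and -1.16 with standard errors of 0.80 to 1.13, and the 9 others lie between -0.11 and 0.24 with standard errors of 0.09 to 0.14.

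The result turned on single libraries. With 1 sample left out, the log2 fold change ranged from -4.37 to -2.12 for *mt-Atp6*, from -4.33 to -1.97 for *mt-Co3*, from -3.69 to -1.39 for *mt-Atp8* and from -3.68 to -1.56 for *mt-Co2*. It ranged from -4.76 to -0.48 for *mt-Nd3* and from -4.67 to -0.27 for *mt-Nd4l*. For all 6 genes the lowest value came without mutant replicate 3 and the highest without wildtype replicate 3. Without wildtype replicate 3, 2 mitochondrial genes had an unadjusted p under 0.05 by edgeR, both lower in the mutants, against 6.50% of all genes, 3.71% lower and 2.79% higher. Without *Pou4f3(Δ/+)* replicate 3 there were 8, the 6 genes inside the stretch lower and the 2 rRNAs higher, against 17.4% of all genes, 8.69% lower and 8.67% higher. When *Pou4f3(Δ/+)* replicate 3 was left out, *mt-Atp6*, *mt-Co3*, *mt-Nd3* and *mt-Nd4l* had an adjusted p under 0.05 by edgeR, together with 193 genes in all (1.10%, and 0.451% in the lower direction). When *Pou4f3(Δ/+)* replicates 1 and 2 were both left out, 0 mitochondrial genes had an unadjusted p under 0.05 by edgeR, against 3.62% of all genes (2.21% lower and 1.40% higher), and *mt-Nd3* and *mt-Nd4l* had log2 fold changes of 0.27 and 0.35. That fit assumes that the lone mutant sample varies like the wildtype samples.

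By complex, the shares of complexes IV and V were lower in the mutants without overlap. Complex V, whose 2 genes both lie inside the stretch, held 0.170%, 0.0761% and 0.0325% of the counts in wildtype and 0.00243%, 0.00674% and 0.0294% in the mutants. Its difference was -0.0798 percentage points, and -0.0414 without wildtype replicate 3. Complex IV held 1.93%, 1.75% and 1.71% in wildtype and 1.46%, 1.56% and 1.59% in the mutants. The exact permutation test gave the smallest possible p for both (p = 0.1 each, 0.2 after Benjamini-Hochberg adjustment over 6 classes and complexes). For *mt-Co1* alone, the complex IV gene that is not wholly inside the stretch, the shares overlapped, at 1.58% ± 0.0524 and 1.503% ± 0.0439 (SD, n = 3 each, exact permutation p = 0.2). This comparison was chosen after the values were seen. Without wildtype replicate 3 the *mt-Co1* groups did not overlap, with a difference of -0.109 instead of -0.0792 percentage points, nor did they without mutant replicate 2 (-0.0990).

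Complexes I and III overlapped between the genotypes. Complex I held 1.64% ± 0.0586 of the counts in wildtype and 1.56% ± 0.136 in the mutants (SD, n = 3 each, exact permutation p = 0.4), a difference of -0.0778 percentage points. Without mutant replicate 3 the complex I groups did not overlap and the difference was -0.156. It was -0.0349 without mutant replicate 1, -0.0422 without mutant replicate 2 and -0.0456 without wildtype replicate 4, each with overlap. Without both mutant replicates 1 and 2 it was 0.0791, in the other direction. Complex III held 0.635% ± 0.0268 and 0.599% ± 0.0255 (SD, n = 3 each, exact permutation p = 0.2). Its groups overlapped through wildtype replicate 3 at 0.611%, and did not overlap without that sample or without mutant replicate 3. The difference of -0.0367 percentage points was -0.0225 without wildtype replicate 4 and -0.0235 without mutant replicate 1. By class, the mRNAs held 4.16% ± 0.155 in wildtype and 3.71% ± 0.227 in the mutants (SD, n = 3 each, exact permutation p = 0.1, adjusted 0.2). In share of the summed FPKM the mRNA groups overlapped, since mutant replicate 3 lay slightly above wildtype replicate 5. The rRNAs held 0.271% ± 0.0305 and 0.321% ± 0.0222 (SD, n = 3 each, exact permutation p = 0.2, adjusted 0.24). Their groups overlapped through wildtype replicate 5 at 0.303%, and did not overlap without that sample or without mutant replicate 3. The rRNA difference of 0.0497 percentage points was 0.0655 without wildtype replicate 5 and 0.0351 without wildtype replicate 3.

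**Figure D4:**
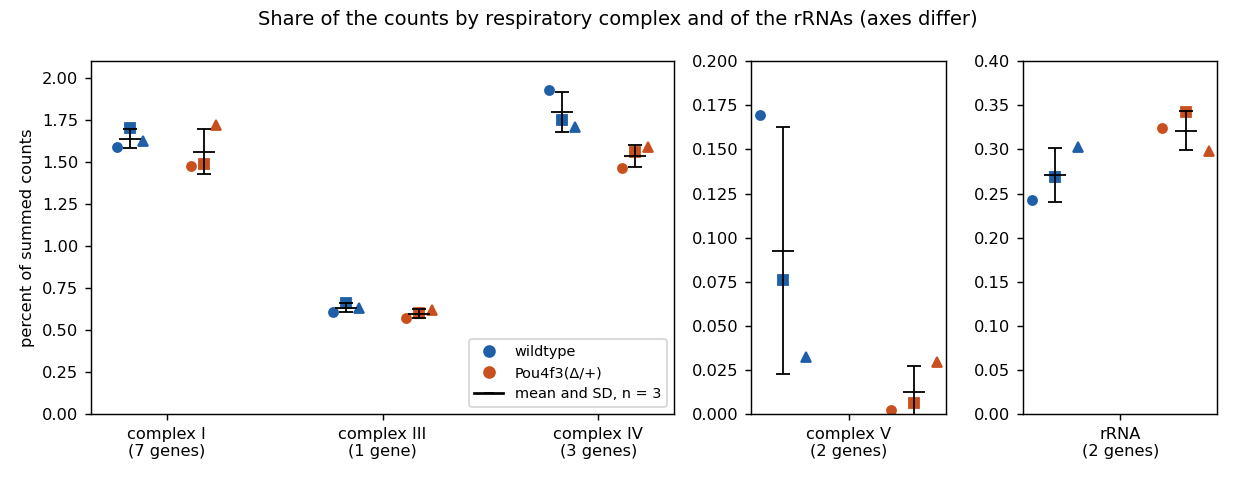
Percent of the summed counts held by the mRNAs of each respiratory complex and by the rRNAs in the 6 samples, with mean and SD (n = 3); each panel has its own axis from 0. The samples of the genotypes do not overlap for complexes IV and V and overlap for complexes I and III and for the rRNAs.

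Within the mitochondrial mRNA, complex V made up 2.19% ± 1.60 of the counts in wildtype and 0.332% ± 0.361 in the mutants (SD, n = 3 each, exact permutation p = 0.1). Complex I made up 39.4% ± 2.13 and 42.0% ± 1.34 (SD, n = 3 each, exact permutation p = 0.1) and did not overlap. These percentages add up to the whole and are not independent of each other. Complexes III and IV overlapped, at 15.3% ± 0.936 and 16.1% ± 0.351 for complex III (SD, n = 3 each, exact permutation p = 0.3) and 43.1% ± 1.63 and 41.5% ± 1.29 for complex IV (SD, n = 3 each, exact permutation p = 0.2). Of the summed mRNA FPKM, complex IV made up 37.1% ± 2.68 and 34.2% ± 0.935 and did not overlap (SD, n = 3 each, exact permutation p = 0.1). Without wildtype replicate 3 the differences in percent of mRNA counts shrank from -1.86 to -0.981 for complex V, from 2.62 to 1.39 for complex I, from 0.865 to 0.324 for complex III and from -1.63 to -0.734 for complex IV. In percent of mRNA FPKM the complex IV difference then shrank from -2.88 to -1.33, still with no overlap. In percent of mRNA counts, complex IV differed by -0.942 without mutant replicate 3 and did not overlap without wildtype replicate 4 or mutant replicate 2, and complex III did not overlap without mutant replicate 3.

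Per length, in FPKM, the genes outside the stretch kept a similar order of levels in both genotypes. In wildtype, *mt-Co1* was at 10242 ± 339 FPKM, *mt-Nd1* at 5752 ± 314, *mt-Cytb* at 5554 ± 234, *mt-Nd2* at 3388 ± 187, *mt-Nd4* at 2231 ± 171 and *mt-Nd5* at 1865 ± 169 (SD, n = 3 each). The ranges of *mt-Nd1* and *mt-Cytb* overlapped, and the other neighbours in this order did not. In *Pou4f3(Δ/+)*, *mt-Co1* was at 9730 ± 284 FPKM and the order of these 6 was the same, with overlap between *mt-Nd1* and *mt-Cytb* and between *mt-Nd4* and *mt-Nd5*. In wildtype, *mt-Co2*, *mt-Co3* and *mt-Atp6* were at means of 1298 to 1625 FPKM with SDs of 970 to 1379, so their place among *mt-Nd4*, *mt-Nd5*, *mt-Nd6*, *mt-Rnr2*, *mt-Rnr1* and *mt-Nd3*, whose ranges they all overlapped, could not be told.

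Counts given to the chromosome 1 copies also differed between the libraries. The 7 copies together were at 30.0, 77.4 and 73.8 CPM in wildtype and at 133, 75.1 and 71.5 in the mutants, lowest in wildtype replicate 3 and highest in *Pou4f3(Δ/+)* replicate 1. Those libraries are the ones in which the 6 mitochondrial genes were highest and lowest. For each 100 counts of the mitochondrial mRNA inside the stretch, the copies of its genes had 0.390, 2.57 and 4.34 counts in wildtype and 96.6, 21.7 and 4.43 in the mutants.

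In the library with the most counts on the copies, *Pou4f3(Δ/+)* replicate 1, those of the genes inside the stretch were at 109 CPM, beside 113 for the mitochondrial genes themselves and 6093 for the mitochondrial genes in wildtype replicate 3. *Gm28437* and *Gm28438* lay wholly above the wildtype range in the mutants, as for 6.07% of all genes, with log2 fold changes of 0.74 ± 0.35 and 0.50 ± 0.29 (SE, edgeR adjusted p = 0.647 and 0.678). The gaps were narrow. For *Gm28437*, wildtype replicate 4 had 20.1 CPM and mutant replicate 3 had 20.7. For *Gm28438*, wildtype replicate 5 had 1.51 CPM and mutant replicate 2 had 1.61. *Gm28438* was counted only 20, 19 and 26 times in wildtype and 37, 25 and 29 times in the mutants. How the authors' program treated reads that match both places is not given in the sources used here, and its part in the result was not tested.

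**Figure D5:**
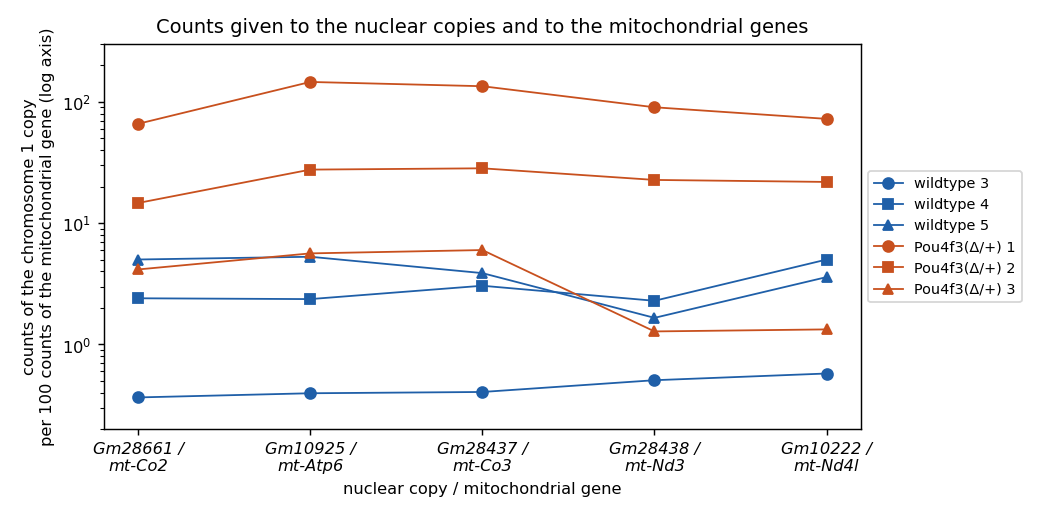
Counts of each chromosome 1 copy for each 100 counts of its mitochondrial gene (log axis), for the 5 genes inside the stretch with an annotated copy, with 1 line per sample. *Pou4f3(Δ/+)* replicate 1 lies highest and wildtype replicate 3 lowest for every gene, and *Pou4f3(Δ/+)* replicate 3 lies below wildtype replicates 4 and 5 for *mt-Nd3* and *mt-Nd4l*.

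The 22 tRNAs, which carry amino acids to the mitochondrial ribosome, were listed at 0 counts in all 6 samples and did not pass the filter: *mt-Ta*, *mt-Tc*, *mt-Td*, *mt-Te*, *mt-Tf*, *mt-Tg*, *mt-Th*, *mt-Ti*, *mt-Tk*, *mt-Tl1*, *mt-Tl2*, *mt-Tm*, *mt-Tn*, *mt-Tp*, *mt-Tq*, *mt-Tr*, *mt-Ts1*, *mt-Ts2*, *mt-Tt*, *mt-Tv*, *mt-Tw* and *mt-Ty*. A count of 0 allows a share of up to 1.70e-05% to 2.10e-05% of the counts, at 3 counts per library and for counting error only. They are 59 to 75 bases long, and none of the 1050 listed transcripts of up to 75 bases had a count in any sample. Of 1420 transcripts of 76 to 100 bases, 1 had a count. No level of the tRNAs can therefore be read from these libraries.

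Nuclear genes that maintain, transcribe and process the mitochondrial genome showed no difference past the threshold. Of 23 genes of mitochondrial DNA maintenance and transcription, 24 of 25 listed genes of mitochondrial RNA processing and stability, and 22 genes of mitochondrial tRNA charging, 0 had an adjusted p and 0 an unadjusted p under 0.05 by edgeR, against 0% and 7.64% of all genes tested. Since no gene passed the adjusted threshold, that 0 is not particular to these lists. Their median log2 fold changes were 0.05, 0.03 and 0.02. DESeq2 gave 0 of these genes at either threshold.

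Examples from each list had small values. *Polrmt*, the mitochondrial RNA polymerase, had a log2 fold change of -0.05 ± 0.15 and *Tfam*, which packages mitochondrial DNA and starts its transcription, one of 0.05 ± 0.09 (SE, edgeR adjusted p = 0.952 and 0.899). *Lrpprc*, which stabilizes mitochondrial mRNAs, had one of 0.09 ± 0.08 (SE, edgeR adjusted p = 0.781). The genes with the smallest p of each list were *Mterf3* and *Polg*, a regulator of mitochondrial transcription and the mitochondrial DNA polymerase, at 0.17 ± 0.11 and 0.11 ± 0.08 (SE, edgeR adjusted p = 0.703 and 0.715). For the RNA list they were *Supv3l1*, a helicase of RNA decay, and *Hsd17b10*, a subunit of the enzyme that cuts tRNA 5′ ends, at -0.24 ± 0.13 and -0.13 ± 0.08 (SE, edgeR adjusted p = 0.668 and 0.696). For the tRNA list they were the glycyl- and isoleucyl-tRNA synthetases *Gars* and *Iars2*, at 0.18 ± 0.08 and -0.16 ± 0.09 (SE, edgeR adjusted p = 0.643 and 0.683).

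The summed marker levels of stria marginal cells and of B cells did not overlap between the genotypes, which was not tested, and their part in the mitochondrial share was not tested either. All 3 markers of stria marginal cells were measured, with a summed level of 197 to 225 CPM in wildtype and 139 to 186 in the mutants. All 9 B cell markers were measured, with a summed level of 377 to 425 CPM in wildtype and 434 to 726 in the mutants, a narrow gap of 425 to 434 between the groups, highest in replicates 1 and 2, in which the genes inside the stretch were lowest. All 7 erythroid markers were measured, at 9993, 9508 and 8570 CPM in wildtype and 11884, 13193 and 9445 in the mutants. These overlapped through mutant replicate 3, while mutant replicates 1 and 2, in which the genes inside the stretch were lowest, lay above every wildtype sample, and the part of erythroid cells in the mitochondrial share was not tested. The summed levels of fibrocyte and supporting cell, bone, neutrophil and myelin markers overlapped as well.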

How the data were processed

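For each sample the authors deposited expected counts (estimated fragments per transcript, which need not be whole, not normalized) and FPKM (fragments scaled by transcript length and library size by the authors) for 128603 transcripts. The labels give RNA with a RIN above a set minimum and paired-end sequencing, and the submitters' processing notes name DESeq2 and mm8. The aligner and counting program are not given in the sources used here. Coordinates, transcripts and sequences are from GENCODE M21 (GRCm38), since the listed transcript lengths match it, and mm8 coordinates were not used. Of the 90 counts above 0 of mitochondrial genes, 0 were not exactly whole (no tolerance), against 82.2% of all counts above 0 in the tables.

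Expected counts were summed per gene symbol and rounded. Genes were kept by filterByExpr at a minimum count of 10 and a total of 15. The 6 libraries were scaled by TMM, and genotype was tested by quasi-likelihood in edgeR 4.0.16 (R 4.3.3), with Benjamini-Hochberg adjustment over 17136 genes. It was first tested on simulated data. Shares were taken of the summed counts before any filter and compared with two-sided exact permutation tests (SciPy 1.17.1). Nuclear copies were found as GENCODE transcripts that hold a stretch of 50 bases of a mitochondrial transcript, and those over 98% identical on chromosome 1 define the copied stretch. DESeq2 1.42.0, limma-trend 3.58.1 on log2(FPKM + pseudocount) at 0.1, 0.5 and 1, no TMM, no filter and each sample left out were the alternatives. Floors reflect counting error alone, because no molecular identifiers are described. Every mitochondrial gene was named, with *Polrmt*, *Tfam*, *Lrpprc* and the 2 genes with the smallest p of each nuclear list. The members and lists were chosen with earlier results of these data known.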

Additional observations from a re-analysis of the deposited data

Results flagged for a closer look

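The 7 near-identical copies on chromosome 1, which are not mitochondrial genes and enter no comparison of the shares, had 133 CPM in *Pou4f3(Δ/+)* replicate 1, above the highest wildtype library, which had 77.4. The other *Pou4f3(Δ/+)* libraries had 75.1 and 71.5 and did not exceed it.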

How the results depend on the processing

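No paired analysis was possible because the groups share fewer than 2 replicate numbers. The number of genes with an adjusted p under 0.05 was 64 by DESeq2, 9 without a filter, 1 by limma-trend on log2(FPKM + 0.1), 6 without *Pou4f3(Δ/+)* replicates 1 and 2, and 0 to 193 with 1 sample left out, and at an unadjusted p under 0.05 it was 1309 in the reported fit, 655 without both and 737 to 3041 with 1 left out. Of the mitochondrial genes, 2 to 8 had an unadjusted p under 0.05 with 1 sample left out (2 without wildtype replicate 3, 8 without *Pou4f3(Δ/+)* replicate 3) and 0 without both mutant replicates, and 0 to 4 had an adjusted p under 0.05. Of the nuclear genes, 1 had an unadjusted p under 0.05 without TMM, in each limma-trend fit and without both mutant replicates, and 0 to 4 with 1 sample left out. Without both mutant replicates the share differed by -0.178 percentage points for all genes, by -0.204 for mRNAs and by 0.0791 for complex I, and the log2 fold changes of *mt-Nd3*, *mt-Nd4*, *mt-Nd4l*, *mt-Nd5*, *Mterf3* and *Tfam* were 0.27, 0.23, 0.35, 0.071, -0.034 and -0.077. By limma-trend, *Polrmt* was at 0.062, 0.066 and 0.057 and *Tfam* at -0.15, -0.15 and -0.14 for pseudocounts of 0.5, 0.1 and 1, and without a filter at 0.062 and -0.15. With 1 sample left out, sign changes occurred for *mt-Nd4* (-0.20 to 0.060), *mt-Nd5* (-0.086 to 0.037), *mt-Nd6* (-0.081 to 0.12), *Polrmt* (-0.15 to 0.093) and *Tfam* (-0.0082 to 0.12). The cause of these changes was not tested. In their lowest library the 6 genes inside the copied stretch had 29 (*mt-Nd4l*) to 1022 (*mt-Co2*) counts, which limits their precision there.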
